A study of Mus musculus with 4 samples.

Results

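The collagen genes of cultured mouse hair follicle stem cells (HFSCs) were taken as all rows of the deposited tables whose symbol is Col, a number, a and a number, apart from Col17a1. The rule found 43 genes among 24346. RNA was sequenced from HFSCs after 10 passages (10p-HFSCs, 2 libraries) and after 48 passages (48p-HFSCs, 2 libraries). The cells had been sorted as CD49f- and CD34-positive cells from the dorsal skin of adult C3H/HeN mice and were passaged about weekly in the serum-free medium M-CnT without feeder cells. Both groups share this strain, sort and medium, and differ in the number of passages. The sources used here do not state whether libraries of 1 passage number came from separate cultures, so that the spread between them may be technical.

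Collagens are extracellular matrix proteins of 3 chains wound into a helix, which rests on regularly spaced glycines and on hydroxylated prolines. Fibrillar collagens such as type I form the fibers of the dermis and are chiefly products of fibroblasts. Basal keratinocytes and outer root sheath cells rest on a basement membrane, where type IV collagen builds the network, type XVIII carries heparan sulfate, and type VII forms the fibrils that anchor the epithelium to the dermis.

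The labelled cell type was first examined by its markers. All 6 keratinocyte markers (Krt5, Krt14, Epcam, Cdh1, Trp63 and Itga6) passed the filter, with a summed FPKM of 3115 to 3751 in 10p-HFSCs and of 8042 to 12529 in 48p-HFSCs. Most of this sum was Krt5 and Krt14, which were not called (limma adjusted p = 0.18 and 0.28), Epcam had the lower mean in 48p-HFSCs (log2 difference -0.72, limma adjusted p = 0.22), and Itga6 was the 1 called, higher. FPKM values carry no read totals. From the most common ratio of low values, the depth of the other libraries was estimated at 46.7% to 82.9% of that of replicate 1 of 10p-HFSCs. The lowest estimate was for replicate 2 of 48p-HFSCs, where low values are therefore the least precise.

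Of the 43 collagen genes, 12 passed the filter (an FPKM of 1 or more in 2 or more libraries) and were tested, and 31 were not. Of the 12 tested genes, 5 were called between the groups, 3 lower (Col1a2, Col16a1 and Col11a2) and 2 higher (Col22a1 and Col7a1) in 48p-HFSCs (limma, adjusted p under 0.05 and a log2 difference of at least 1). Of all 11018 genes tested, 19.9% were called, 10.8% higher and 9.15% lower, that is 1189 and 1008 genes, or 620 and 820 under rescaling to equal summed FPKM (TPM). Of the 5 called collagen genes, 4 reached an FPKM of 1 in 1 group only, and such genes passed the filter only through the group in which they were high. Both groups reached this level in 8 of the 12 genes, of which Col7a1 alone was called. The median log2 difference was -0.42 over the 12 tested collagen genes and -0.03 over all genes tested. The 4 genes that reached an FPKM of 1 in 1 group only enter the former with a direction that the filter fixed. The sign of this median is therefore not read as a fall of collagen genes. Over all 43 collagen genes, tested or not and many of them near 0, the median was 0.0. The libraries of the groups did not overlap in 10 of the 12 (65.9% of all genes tested). In 4 of them both 48p-HFSC libraries were above (31.7% of all genes), and in 6 both were below (34.3% of all genes). Col22a1 is among those above, and Col1a2, Col16a1 and Col11a2 are among those below. The filter fixed the directions of these genes, so that no lean to either side is read from the counts. Without either of the 10p-HFSC libraries, 1 collagen gene was called, Col1a2, while 175 (without replicate 1) and 182 (without replicate 2) of all genes were. The limma adjusted p was then 0.051 to 0.065 for Col16a1, Col11a2 and Col22a1 and 0.21 to 0.24 for Col7a1, with the same directions.

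**Figure D1:**
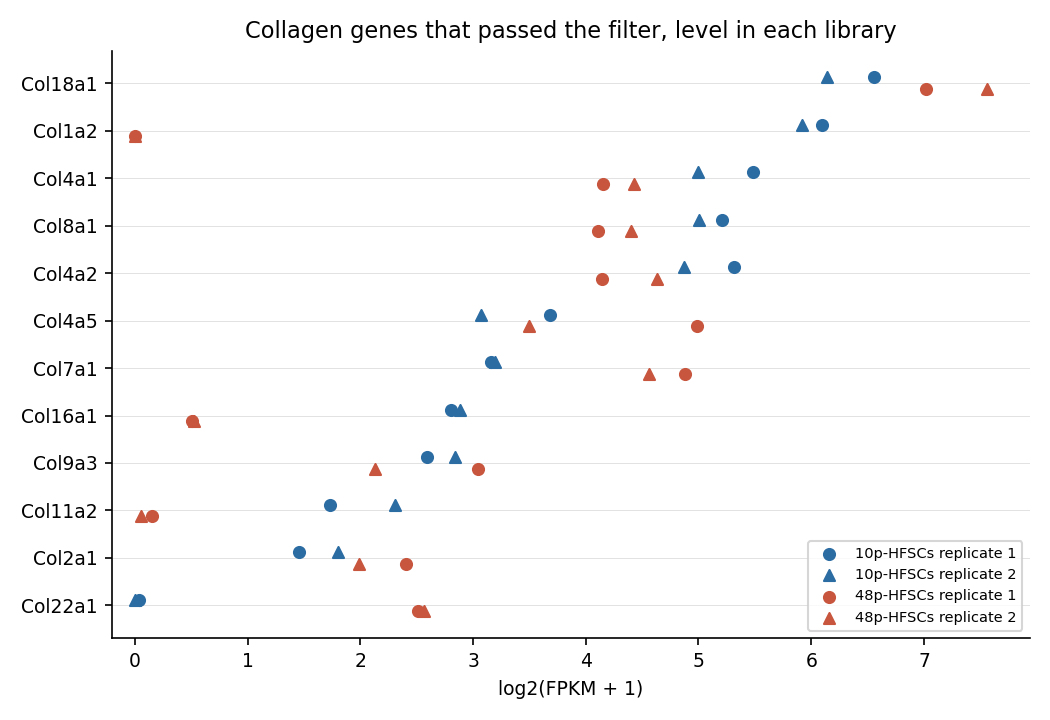
Level of the 12 collagen genes that passed the filter, as log2(FPKM + 1) on the x axis, in each of the 4 libraries (blue, 10p-HFSCs; red, 48p-HFSCs; circles, replicate 1; triangles, replicate 2), ordered by their mean FPKM in 10p-HFSCs. Col1a2 lay near 6 in both 10p-HFSC libraries and at 0 in both 48p-HFSC libraries, and Col22a1 near 0 in 10p-HFSCs and near 2.5 in 48p-HFSCs.

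Stretches of DNA upstream of the called genes are shown because these genes passed the test. They were read from RefSeq's GRCm38.p6 promoter windows, which are of the reference mouse and not of C3H/HeN, on the strand of the gene, and were limited to bases outside annotated exons. The start is that of RefSeq, which for Col1a2 lies within the gene as annotated by GENCODE. An entry was found for 34 of the 43 collagen genes, and Col22a1 had none. Capitals mark the GC box GGGCGG, the motif bound by Sp1, or its reverse complement CCGCCC.
Col1a2, chr6:4505373-4505492, plus strand, 245 to 126 bases upstream of the start: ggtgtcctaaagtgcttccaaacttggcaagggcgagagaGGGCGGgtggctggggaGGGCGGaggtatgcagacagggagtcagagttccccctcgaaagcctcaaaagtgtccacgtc
Col16a1, chr4:130047775-130047839, plus strand, the last 65 bases before the start: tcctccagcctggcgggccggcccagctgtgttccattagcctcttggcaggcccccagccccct
Col11a2, chr17:34039018-34039137, plus strand, the last 120 bases before the start: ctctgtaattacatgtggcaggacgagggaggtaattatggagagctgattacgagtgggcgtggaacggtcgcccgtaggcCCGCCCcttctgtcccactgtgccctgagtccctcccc
Col7a1, chr9:108953466-108953585, plus strand, the last 120 bases before the start: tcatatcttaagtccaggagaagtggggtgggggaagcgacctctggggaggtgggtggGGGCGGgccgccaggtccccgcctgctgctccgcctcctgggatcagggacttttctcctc
In the 250 bases before the start, the GC box was found on either strand in 21 of the 34 collagen genes (61.8%) and in 35.4% of all 27025 genes with a window. The letters CCAAT (or ATTGG) were found in 12 of the 34 (35.3%) and in 37.5% of all genes, and TATAAA (or TTTATA) in 4 of the 34 (11.8%) and in 14.3% of all genes. Within these 250 bases the GC box was present upstream of called genes that were lower (Col1a2, Col11a2 and Col16a1) and of Col7a1, which was higher. A match of letters is not a site of binding.

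Among the 11 fibrillar collagen genes, 3 were tested and 2 were called, both lower in 48p-HFSCs, while 9.15% of all genes tested were called lower. Both, Col1a2 and Col11a2, reached an FPKM of 1 in 10p-HFSCs only, so that they could be called only as lower. Col1a2 encodes the α2 chain of type I collagen, the main fiber of the dermis, and lies on chromosome 6 of mm10 from 4504814 to 4541544. Its FPKM was 67.6 and 59.3 in the 10p-HFSC libraries, whereas the libraries of 48p-HFSCs both listed it at 0. In 10p-HFSCs it stood above 86.9% to 89.3% of the genes tested. Its log2 difference was -6.01 ± 0.26 (SE, limma adjusted p = 0.00056). As the gene is listed at 0, no fold change is given, and the log2 difference depends on the pseudocount (-9.31 with a pseudocount of 0.1). A pseudocount of 1 compresses the differences of genes that are low in a group, which applies to the log2 values of all such genes. In RNA of whole cultures, fewer cells with a transcript and less of it per cell cannot be told apart.

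The partner chain was far below Col1a2 in 10p-HFSCs. Col1a1, which encodes the α1 chain of type I collagen, had an FPKM of 0.903 and 0.744 in 10p-HFSCs versus 0.0525 and 0.0466 in 48p-HFSCs. The groups did not overlap, and both fell short of the filter. Per unit of length, Col1a2 exceeded Col1a1 by 74.8-fold and 79.7-fold in the 10p-HFSC libraries, whereas the trimer of type I collagen usually holds more α1 than α2 chains. Without the filter, Col1a1 had a log2 difference of -0.80 with a limma adjusted p of 0.014. The fold limit was out of its reach on this scale, since its FPKM was under 1 in all libraries. Col3a1, the type III chain that accompanies type I in dermal fibers, was between 0.0990 and 0.195 in all libraries, and the groups overlapped.

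Markers of fibroblasts, the usual source of type I collagen, were read beside these values. Vim, which encodes vimentin, fell with Col1a2, from an FPKM of 284 and 327 in 10p-HFSCs to 2.35 and 3.08 in 48p-HFSCs (limma adjusted p = 0.00056). The other 9 fibroblast markers summed to an FPKM of 0.555 and 0.410 in 10p-HFSCs versus 8.66 and 8.98 in 48p-HFSCs. Mfap5, at 4.93 and 7.89 in 48p-HFSCs, and Twist2, at 3.35 and 0.849, made up most of the latter sums, and Mfap5 was the one tested and called of these 9. Pdgfra, at 0.284 and 0.0752 in 10p-HFSCs, was listed at 0 in 48p-HFSCs, and Postn was at 0.146 and 0.210 versus 0.0201 and 0.0358, so that the markers did not share a direction. Thy1 was listed at 0 in all libraries. The part of these changes in the values of Col1a2 was not tested. Markers of other cells of the skin were read in the same way. Summed FPKM in 10p-HFSCs and 48p-HFSCs was 0.800 to 1.26 and 11.5 to 11.7 for 5 markers of smooth muscle and pericytes. Most of the latter was Des, at 10.8 and 10.7, the 1 tested, which was called higher. Below the filter, Acta2 had the higher mean in 48p-HFSCs, while Myh11 and Cnn1 had the lower mean. The sum was 2.58 to 2.86 and 0.292 to 1.37 for 5 endothelial markers, of which the 1 tested was not called. It was 0.0137 to 0.107 and 0.504 to 0.694 for 5 leukocyte markers, 1.24 to 1.29 and 3.85 to 11.7 for 5 melanocyte markers, and 0.657 to 1.198 and 0.587 to 0.738 for 4 Schwann cell markers, where the 1 tested gene, Tyr of the melanocyte list, was not called. Rgs5, Cd3e, Tyrobp, Dct and Sox10 were at 0 in all libraries.

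Col11a2, a chain of the thin fibrils of cartilage, lies on chromosome 17 from 34039437 to 34066685. It was at an FPKM of 2.33 and 3.96 in 10p-HFSCs versus 0.109 and 0.0388 in 48p-HFSCs, with no overlap. The log2 difference was -1.92 ± 0.28 (SE, limma adjusted p = 0.0080), or -4.20 with a pseudocount of 0.1. A ratio of means would rest on the low values of 48p-HFSCs and is not given. Col2a1, the major cartilage collagen, was in contrast at 1.75 and 2.48 in 10p-HFSCs versus 4.31 and 2.97 in 48p-HFSCs. This difference of 0.57 on the log2 scale did not pass (standard error 0.29, limma adjusted p = 0.22), although the libraries did not overlap. The other members of the fibrillar class were under the filter. Col5a3, a chain of the type V collagen that regulates fibril diameter, was at 0.0332 and 0.0464 in 10p-HFSCs versus 0.401 and 0.445 in 48p-HFSCs, and Col5a2 was at 0.130 and 0.117 versus 0.00920 and 0. Col5a1, their partner chain, was at most 0.0432.

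The basement membrane genes of type IV collagen had 3 tested members, and none of them was called. Col4a1 and Col4a2 encode the α1 and α2 chains of the common type IV network. They lie head to head on chromosome 8, from 11198423 to 11312826 and from 11312805 to 11449287, and the annotated genes overlap by 22 bases. Col4a1 was at an FPKM of 43.8 and 30.9 in 10p-HFSCs versus 16.8 and 20.5 in 48p-HFSCs, and Col4a2 was at 38.7 and 28.2 versus 16.7 and 23.7. Both 48p-HFSC libraries were below both 10p-HFSC libraries for either gene. The log2 difference of Col4a1 was -0.95 ± 0.29 (SE, limma adjusted p = 0.067) and that of Col4a2 was -0.71 ± 0.30 (SE, limma adjusted p = 0.15), and neither passed. Col4a1 passed under quantile normalization, with -1.03 (limma adjusted p = 0.039). The chains kept close to each other in all libraries, since the FPKM of Col4a2 was 0.885 and 0.914 times that of Col4a1 in 10p-HFSCs and 0.994 and 1.16 times in 48p-HFSCs. The 565 tested genes of chromosome 8 had a median log2 difference of -0.61, and the part of this in the values of Col4a1 and Col4a2 was not tested.

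Col4a5 and Col4a6, whose chains form a further type IV trimer of the epidermal basement membrane, lie head to head on chromosome X with their starts 1309 bases apart. Col4a5 (141475385 to 141689234) had an FPKM of 11.8 and 7.39 in 10p-HFSCs versus 30.6 and 10.3 in 48p-HFSCs. The 48p-HFSC libraries differed from each other more than the groups did, and the groups overlapped (log2 difference 0.86 ± 0.53 as SE, limma adjusted p = 0.28). Col4a6 was at 0.197 and 0.148 in 10p-HFSCs versus 0.476 and 0.260 in 48p-HFSCs, below the filter in each library, while Col4a5 exceeded it by 39.5-fold to 64.3-fold. Col4a3 and Col4a4, known from the kidney glomerulus, start 72 bases apart on chromosome 1 and were at most 0.0912 and 0.179, and for either gene the 48p-HFSC values were the higher ones.

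Replicates of 1 group differed with transcript length, and collagen transcripts are long. The tested collagen genes had transcripts of 3046 to 9250 bases (median 5822), and all tested genes had a median of 3285 bases. Replicate 2 minus replicate 1 of 48p-HFSCs had a median of -0.29 on the log2 scale over 2279 tested genes of at least 5000 bases and of 0.46 over 2413 genes under 2000 bases. For 10p-HFSCs these medians were -0.23 and 0.24. Over the 12 tested collagen genes the median was 0.0076 in 48p-HFSCs and -0.11 in 10p-HFSCs. The former includes genes at or near 0 in 48p-HFSCs, such as Col1a2, which cannot show a shift. Single genes went either way from replicate 1 to replicate 2 of 48p-HFSCs, as with Col4a5 (FPKM 30.6 and 10.3) and Col18a1 (129 and 188). The part of length in these differences between replicates was not tested. After a correction for length and GC content within each library, the log2 difference was 1.11 for Col4a5 (limma adjusted p = 0.11) and -0.75 for Col4a1 (limma adjusted p = 0.10), and neither was called.

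Of the other genes of the basement membrane zone, Col7a1 was called and Col18a1 was not, and the means of both were higher in 48p-HFSCs. Col7a1 encodes the chain of the anchoring fibrils, and lies on chromosome 9 from 108953586 to 108984875. It rose from an FPKM of 7.94 and 8.18 to 28.5 and 22.6, 3.17-fold, with a log2 difference of 1.54 ± 0.26 (SE, limma adjusted p = 0.013). The groups were well apart. Under TPM, which moved the median of all genes to -0.55, the difference was 1.01 and did not pass (limma adjusted p = 0.32).

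Col18a1 encodes a basement membrane chain from whose end endostatin is released, and lies on chromosome 10 from 77052178 to 77166548. With an FPKM of 93.4 and 69.4 in 10p-HFSCs versus 129 and 188 in 48p-HFSCs, it was the highest collagen gene in each library, above 89.2% to 94.2% of the genes tested. The groups did not overlap, but the log2 difference of 0.94 did not pass (standard error 0.33, limma adjusted p = 0.10). It passed after correction for length and GC content (1.19, limma adjusted p = 0.048) and without replicate 1 of 48p-HFSCs (1.21, limma adjusted p = 0.043). Col15a1, the other multiplexin, was at 0.373 and 0.440 in 10p-HFSCs versus 0.219 and 0.164 in 48p-HFSCs.

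**Figure D2:**
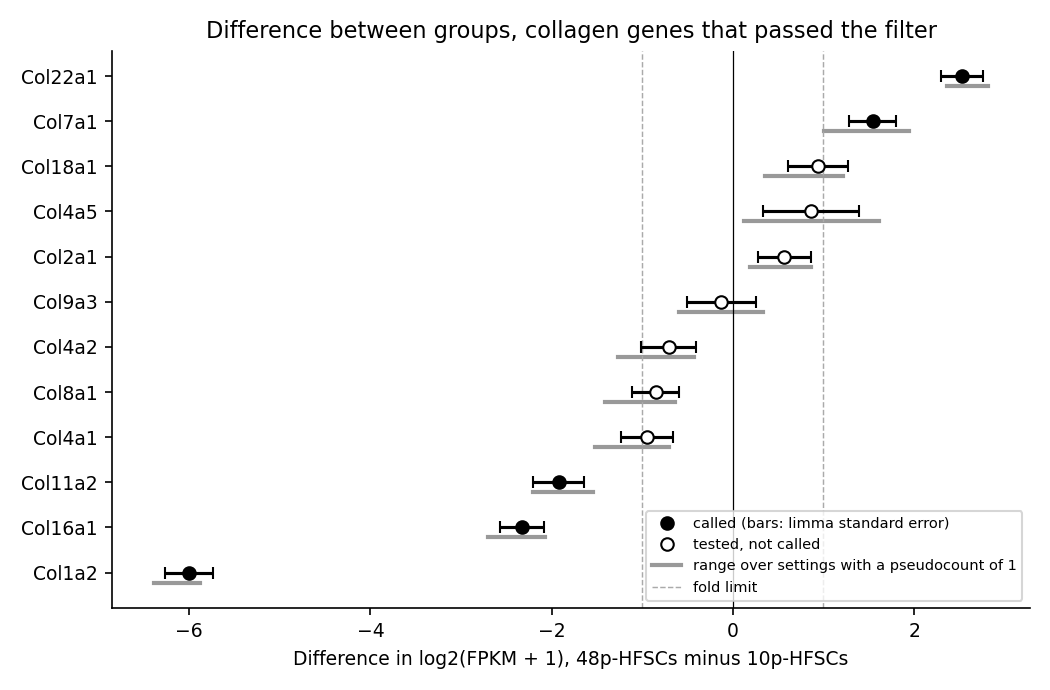
Difference between the group means of the 12 tested collagen genes in log2(FPKM + 1), 48p-HFSCs minus 10p-HFSCs, with limma's standard error as bars (filled, called; open, not called). Grey lines span the settings with a pseudocount of 1, and dashed lines mark the fold limit. Col1a2, Col16a1 and Col11a2 lay beyond the limit on the lower side and Col7a1 and Col22a1 on the higher side, and the grey line of Col9a3 crosses 0.

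The fibril-associated collagens, which sit on the surface of fibrils or at tissue junctions, had 3 tested members of 9, and those called moved in opposite directions. Col16a1 reached an FPKM of 1 in 10p-HFSCs only and Col22a1 in 48p-HFSCs only, so that the filter fixed these directions. Col16a1, found near the junction of dermis and epidermis, lies on chromosome 4 from 130047840 to 130099283. It was at an FPKM of 6.001 and 6.40 in 10p-HFSCs versus 0.424 and 0.439 in 48p-HFSCs. Replicates were close in both groups, and the mean was 14.4-fold lower in 48p-HFSCs, with a log2 difference of -2.33 ± 0.24 (SE, limma adjusted p = 0.0026), or -3.57 with a pseudocount of 0.1. The fold rests on 48p-HFSC values under an FPKM of 1.

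Col22a1 encodes a collagen of tissue junctions such as those of muscle with tendon, and lies on chromosome 15 from 71795795 to 72034227. It was at an FPKM of 0.0248 and 0 in 10p-HFSCs versus 4.72 and 4.93 in 48p-HFSCs, with a log2 difference of 2.52 ± 0.23 (SE, limma adjusted p = 0.0018), or 5.46 with a pseudocount of 0.1. The replicates of 48p-HFSCs were close to each other. A ratio of means would rest on the single low value of replicate 1 of 10p-HFSCs and is not given. Col9a3, a chain of the type IX collagen of cartilage, was at 5.03 and 6.17 in 10p-HFSCs versus 7.27 and 3.37 in 48p-HFSCs, so that the 48p-HFSC libraries enclosed the others (log2 difference -0.13 ± 0.38 as SE, limma adjusted p = 0.83). Its partner chains Col9a1 and Col9a2 were listed at 0 in all libraries and at most at 0.0412.

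Col8a1, a short chain that forms hexagonal networks, for instance in vessel walls and the cornea, was at an FPKM of 36.0 and 31.1 in 10p-HFSCs versus 16.2 and 20.2 in 48p-HFSCs. The libraries did not overlap, but the log2 difference of -0.85 did not pass (standard error 0.26, limma adjusted p = 0.068). Its partner Col8a2 and the growth plate collagen Col10a1 were listed at 0 in all libraries. In each group the FPKM of Col8a1, Col4a1 and Col4a2 overlapped, so that their order is not resolved.

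Exons of 5 of the 12 tested genes overlap those of other annotated genes, namely Col4a1 and Col4a2 with each other, Col4a2 with Gm15419, Col7a1 with Mir711, Col9a3 with Tcfl5, and Col22a1 with Gm16308. As the strand setting of the counting is not given in the sources used here, reads of such pairs may not have been told apart.

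The summed FPKM of the 43 genes was 318 and 257 in 10p-HFSCs (288 ± 43.1, SD, n = 2) and 257 and 299 in 48p-HFSCs (278 ± 29.5, SD, n = 2), a difference smaller than the spread between replicates. The difference in this sum of -10.0 ranged from -40.4 to 20.4 when 1 library was left out, and was -130.4 under TPM, with sums of 463 and 303 in 10p-HFSCs and of 326 and 178 in 48p-HFSCs. The make-up of this sum differed between the groups. Fibrillar genes gave 23.0% and 26.0% of it in 10p-HFSCs, nearly all from Col1a2, and 2.00% and 1.25% in 48p-HFSCs. Type IV genes gave 29.7% and 25.9% in 10p-HFSCs versus 25.2% and 18.4% in 48p-HFSCs. The multiplexins, that is Col18a1 for the most part, gave 29.5% and 27.1% in 10p-HFSCs versus 50.2% and 62.9% in 48p-HFSCs. Col7a1 gave 2.49% and 3.18% in 10p-HFSCs versus 11.1% and 7.57% in 48p-HFSCs. Shares are of 1 sum, so that a fall of Col1a2 raises those of the others. With 2 libraries against 2, an exact permutation test cannot give a two-sided p under 0.333, and none is given for these sums.

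**Figure D3:**
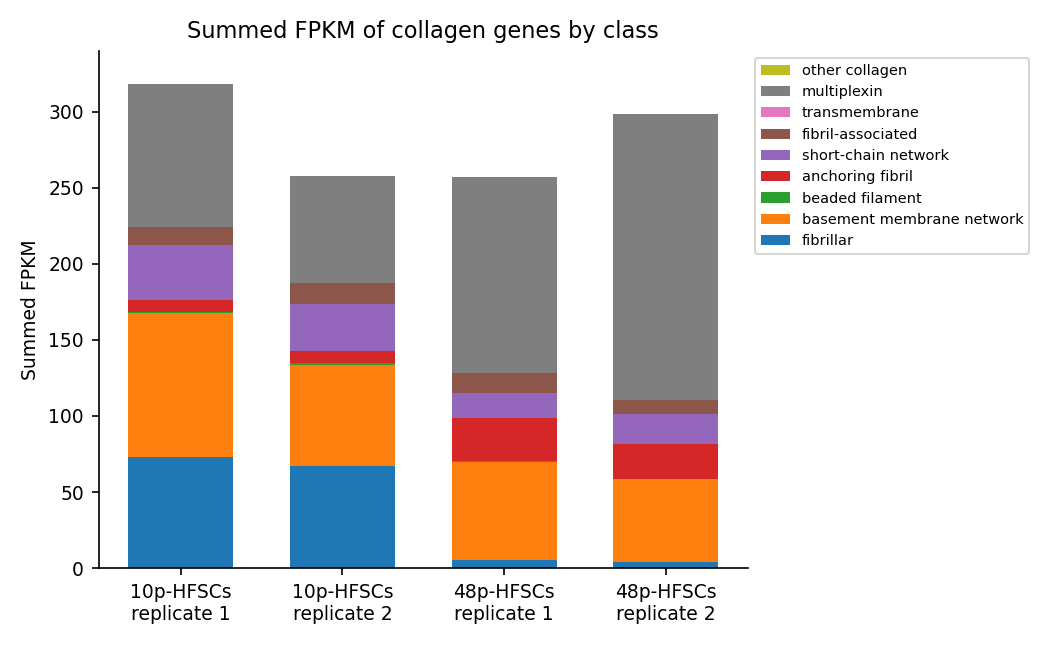
Summed FPKM of the 43 collagen genes in each library, stacked by class. The fibrillar part at the foot of the bars is 73.1 and 67.0 in 10p-HFSCs versus 5.14 and 3.74 in 48p-HFSCs, while the multiplexin part at the top is 93.8 and 69.9 in 10p-HFSCs versus 129 and 188 in 48p-HFSCs.

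Of the 31 genes below the filter, 5 were listed at 0 in all libraries (Col8a2, Col9a1, Col10a1, Col13a1 and Col19a1). A further 15 had a value above 0 but were at most 0.1 in each library. The remaining 11 reached more than 0.1 in at least 1 library, and the highest was Col20a1, at 0.527 and 0.959 in 10p-HFSCs versus 0.459 and 0.263 in 48p-HFSCs. Col6a1, a chain of the type VI beaded filaments around cells, was at 0.855 and 0.814 in 10p-HFSCs versus 0.281 and 0.0832 in 48p-HFSCs. Its partners Col6a2 and Col6a3 were at most 0.0387 and 0.0277. When all genes with a value above 0 were fitted, none of the 26 members below the filter could be called. Each stayed under an FPKM of 1, where the fold limit on log2(FPKM + 1) is out of reach. Col1a1 and Col6a1 (lower in 48p-HFSCs) and Col5a3 (higher) had limma adjusted p-values of 0.014, 0.045 and 0.019 with log2 differences of -0.80, -0.64 and 0.45. The transmembrane collagens Col13a1, Col23a1 and Col25a1 were at most 0.0125, and Col12a1 and Col14a1, fibril-associated chains of stretched tissue, at most 0.420 and 0.0168.

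**Figure D4:**
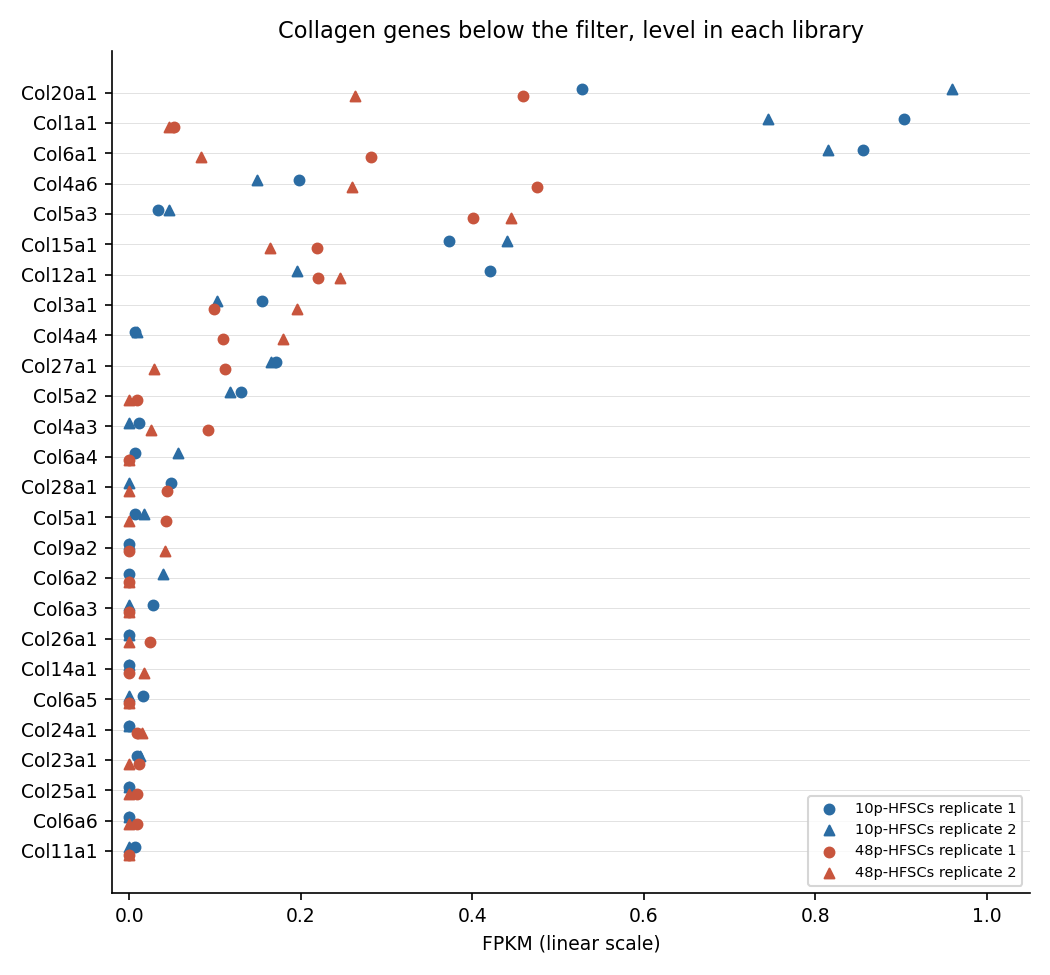
FPKM on a linear scale of the 26 collagen genes that were below the filter but above 0 in at least 1 library (blue, 10p-HFSCs; red, 48p-HFSCs; circles, replicate 1; triangles, replicate 2). Col1a1 and Col6a1 were near 0.8 or 0.9 in 10p-HFSCs and under 0.3 in 48p-HFSCs, and Col5a3 was near 0 in 10p-HFSCs and above 0.4 in 48p-HFSCs.

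Genes that modify and fold collagen chains, 23 in all, had 16 tested members, of which 1 was called, lower, and 15 were not (6.25% called, against 19.9% of all genes tested). The median log2 difference of the tested members was -0.18. The called gene was P3h2, a prolyl 3-hydroxylase that acts on type IV collagen, at an FPKM of 10.6 and 5.84 in 10p-HFSCs versus 0.144 and 0.0512 in 48p-HFSCs (log2 difference -3.02 ± 0.33 as SE, limma adjusted p = 0.0031, or -5.37 with a pseudocount of 0.1). P3h2 reached an FPKM of 1 in 10p-HFSCs only, so that it could be called only as lower. Serpinh1, the collagen chaperone HSP47, was at 0.0241 and 0 in 10p-HFSCs versus 0.844 and 0.207 in 48p-HFSCs, and did not pass the filter. P4ha1, a catalytic subunit of the enzyme that hydroxylates prolines, was at 12.8 and 7.97 in 10p-HFSCs versus 9.69 and 19.2 in 48p-HFSCs, with overlapping groups. Plod2, a lysyl hydroxylase, was at 19.0 and 14.1 versus 23.4 and 22.3 (limma adjusted p = 0.26). After correction for length and GC content 4 of these genes were called, P3h2, Crtap and Fkbp14 lower and Sec24d higher, and with quantile normalization 3 were, P3h2 and Ppib lower and Sec24d higher.

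Of 14 genes that process and cross-link procollagen, 6 were tested and 3 were called, all higher in 48p-HFSCs, while 10.8% of all genes tested were called higher. The median log2 difference of the 6 tested genes was 1.91. Pcolce2 and Pxdn, which enter this median, reached an FPKM of 1 in 48p-HFSCs only, so that they could be called only as higher. Pcolce and Pcolce2 encode enhancers of the proteinase that removes the C-terminal propeptide of fibrillar collagens. Pcolce was at an FPKM of 3.73 and 2.298 in 10p-HFSCs versus 75.4 and 47.5 in 48p-HFSCs (log2 difference 3.95 ± 0.35 as SE, limma adjusted p = 0.0016), and Pcolce2, at 5.25 and 7.93 in 48p-HFSCs, had been listed at 0 in 10p-HFSCs (log2 difference 2.90, limma adjusted p = 0.0021). Pxdn, peroxidasin, which forms cross-links in type IV collagen, was at 0.198 and 0.117 in 10p-HFSCs versus 10.9 and 9.45 in 48p-HFSCs (log2 difference 3.27 ± 0.25 as SE, limma adjusted p = 0.0012). Bmp1, the proteinase itself, was at 31.1 and 31.5 in 10p-HFSCs versus 40.2 and 40.1 in 48p-HFSCs and was not called (limma adjusted p = 0.32). For each of the 3 called genes and for Bmp1, both 48p-HFSC libraries were above both 10p-HFSC libraries, as for 31.7% of all genes tested. With a pseudocount of 0.1, the log2 difference was 6.03 for Pcolce2 and 5.33 for Pxdn. Lox, lysyl oxidase, was listed at 0 in all libraries.

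Of 10 collagen receptor genes, 2 were tested, Ddr1 and Itgb1, and limma called neither. Both had an unadjusted limma p under 0.05, as had 4118 of all 11018 genes tested. Itgb1, the β1 integrin chain, was at an FPKM of 281 and 206 in 10p-HFSCs versus 108 and 151 in 48p-HFSCs (log2 difference -0.91, limma adjusted p = 0.12), and was called lower under TPM and under quantile normalization. TPM moved the median of all genes to -0.55. Itgb1 also lies on chromosome 8, whose tested genes had a median log2 difference of -0.61, and the part of this in its values was not tested. Ddr1, a receptor kinase for collagen, was at an FPKM of 25.5 and 22.4 in 10p-HFSCs versus 47.9 and 38.1 in 48p-HFSCs (log2 difference 0.81 ± 0.26 as SE, limma adjusted p = 0.077). Itga2, a collagen-binding integrin chain, was listed at 0 in 3 libraries and was at 0.0261 in replicate 2 of 48p-HFSCs. Of 10 proteases that degrade collagens, 2 were tested and 1 was called, and of 12 matrix proteins that bind collagen, 4 were tested and 1 was called, both higher, beside the same 10.8% of all genes. Mmp10, stromelysin 2, rose from 5.33 and 3.70 to 20.2 and 27.1 (log2 difference 2.16 ± 0.31 as SE, limma adjusted p = 0.0071), which did not pass under TPM (1.65, limma adjusted p = 0.13). Mmp14, a membrane-bound collagenase, was at 23.0 and 15.3 in 10p-HFSCs versus 61.8 and 15.7 in 48p-HFSCs, where 1 library was high and the other was not. Hspg2, perlecan of the basement membrane, rose from 2.68 and 1.71 to 6.65 and 10.2 (log2 difference 1.55 ± 0.33 as SE, limma adjusted p = 0.026), which did not pass under TPM (1.09, limma adjusted p = 0.31), without the filter (limma adjusted p = 0.072) or without replicate 2 of 48p-HFSCs (1.28, limma adjusted p = 0.064). Without either of the 10p-HFSC libraries, none of these called genes but P3h2 passed.

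**Figure D5:**
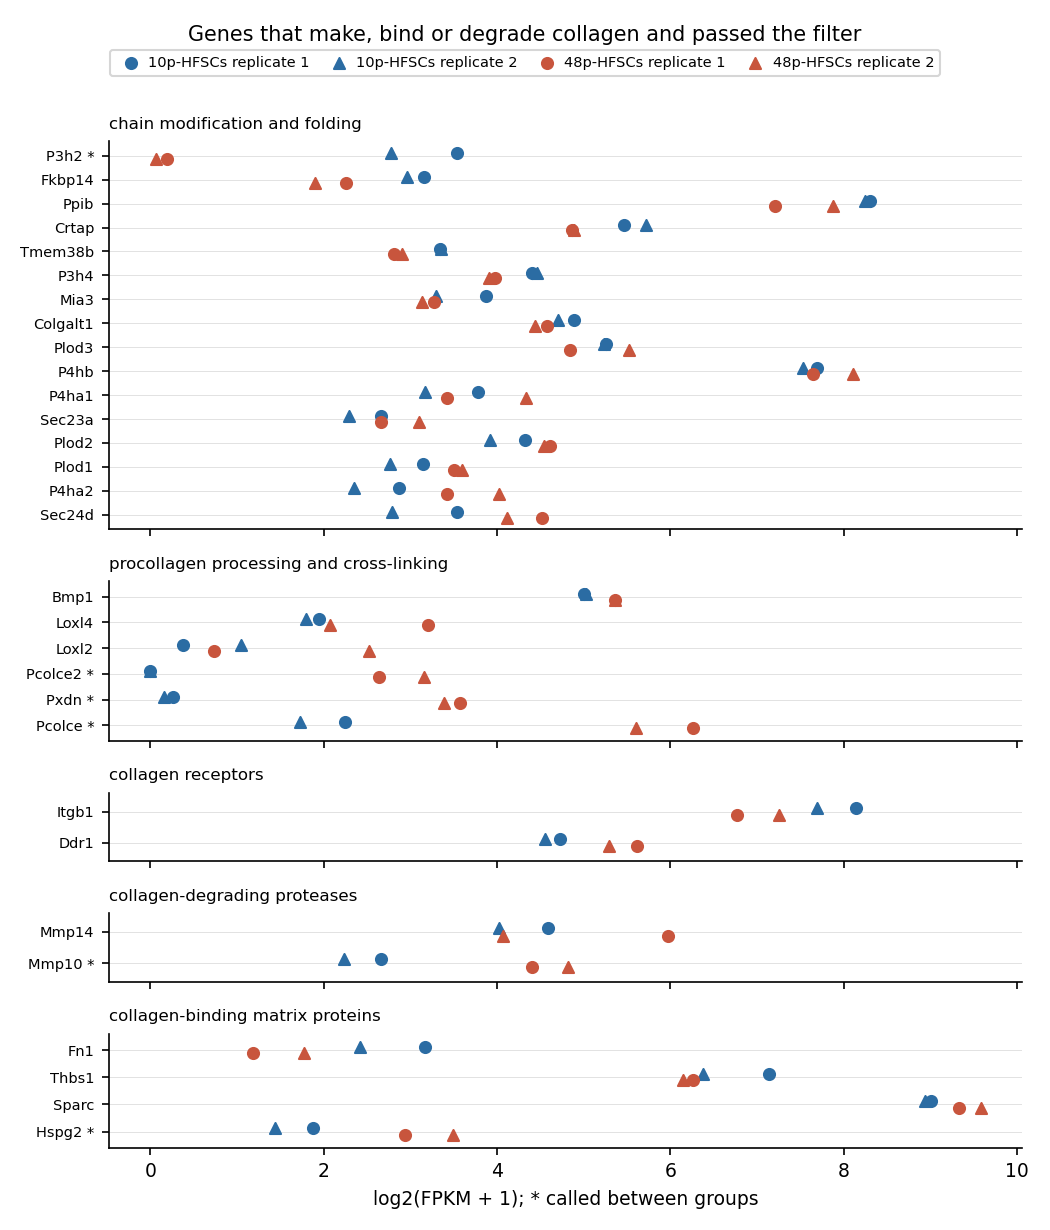
Level, as log2(FPKM + 1), of the 30 tested genes of the lists that make, process, bind or degrade collagen, in each library (blue, 10p-HFSCs; red, 48p-HFSCs; circles, replicate 1; triangles, replicate 2), with called genes starred. P3h2 lies to the left in 48p-HFSCs, and Pcolce, Pcolce2, Pxdn, Mmp10 and Hspg2 lie to the right.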

How the data were processed

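The RNA was extracted with TRIzol, libraries were made with a stranded mRNA kit and read from one end, and the authors deposited 1 table of FPKM values (fragments scaled to transcript length and to library size) per library. Per the submitters' processing notes, reads were mapped to mm10 with TopHat2 2.1.1, Bowtie2 2.2.8 and SAMtools 0.1.18, and the notes name Cuffdiff 2.2.1. The paper's methods name Cufflinks and other versions of Bowtie2 and SAMtools. The annotation, the strand setting and the treatment of reads with several matches are not given in the sources used here. FPKM values are not counts, so no count test was run.

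Values were analysed as log2(FPKM + 1) without further scaling. The summed FPKM ran from 581516 in replicate 1 of 10p-HFSCs to 1414953 in replicate 2 of 48p-HFSCs, a difference that TPM rescaling removes. The 11018 of 24346 genes that reached an FPKM of 1 in 2 or more libraries were tested using limma 3.58.1 under R 4.3.3 (variance trend, two-sided, Benjamini-Hochberg adjustment over all 11018 genes). A gene was called at an adjusted p under 0.05 with an absolute log2 difference of at least 1. Libraries were grouped by the passage number in their titles. On simulated data for this comparison (11018 genes, 200 of them changed, 5 sets per size), the calls held 62.5% of the genes given a log2 change of 3 and 0% of those given one of 1.5. In the data 2197 genes were called, so that the adjustment was stricter in the simulation and its shares do not carry over. Col7a1, for instance, was called at a log2 difference of 1.54. Every collagen gene that passed the filter was named with its values, and the other members were named in groups. Genes called in the accompanying lists were also described, as were Serpinh1, P4ha1, Plod2, Lox, Bmp1, Itga2, Ddr1 and Mmp14 in any case, with the list members and markers named beside a count. The members and the lists were chosen with earlier results of these data known. Positions and transcript lengths came from GENCODE M21 (GRCm38, the assembly of mm10), and the length of a gene is that of its longest transcript. Other computations used Python 3.11 and pandas 2.3.3. Alternatives are given in the closing section.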

Additional observations from a re-analysis of the deposited data

How the results depend on the processing

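The 5 collagen genes were also called under 10 of 11 alternatives that kept all libraries (a pseudocount of 0.1, no filter, a filter on the mean, quantile normalization, scaling by median ratios, no variance trend, no fold limit, the replicate block, and the length and GC correction with and without that block). Dropping the fold limit only loosens the rule and so keeps every call. The median-ratio factors were 0.989 to 0.9997, so that this scaling hardly changed the values. TPM rescaling left 4, without Col7a1. Leaving out a library gave 1 to 6 collagen calls, and 175 to 3811 over all genes, with the lone library of a group assumed to vary like the others. No filter gave 1453 calls over all genes and TPM 1440, against 2197. The lists had 2 (TPM), 3 (quantile), 3 (replicate block), 4 (length and GC correction) and 5 (that correction with the replicate block) calls against 1 for chain modification and folding (1 to 3 without a library), 0 to 4 without a library for procollagen processing, 1 against 0 for receptors under TPM and quantile normalization, 0 against 1 for proteases under TPM (0 to 1 without a library), and 0 (no filter), 0 (TPM), 2 (replicate block) and 2 (with the length and GC correction as well) against 1 for matrix proteins (0 to 1 without a library). The difference in summed collagen FPKM, -10.0, was -130.4 under TPM and -40.4 to 20.4 without a library. Among genes that were not called, the sign turned for Col9a3 under quantile normalization (0.0064), for P4ha1 (-0.15), Plod2 (-0.10) and Bmp1 (-0.22) under TPM, and without a library for Col9a3 (-0.59 to 0.33), P4ha1 (-0.056 to 0.86) and Mmp14 (-0.24 to 1.67). The cause of these changes was not tested.

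Replicate numbers are shared by both groups, but nothing in the labels ties same-numbered libraries. Across 11018 genes, deviations of same-numbered libraries were correlated with r = 0.41. With the replicate block, the 5 collagen calls were kept and 3110 of all genes were called. Col4a1 (adjusted p = 0.018), Col8a1 (0.026), Col18a1 (0.043) and Col4a5 (0.035) had limma adjusted p-values under the threshold in that fit and stayed short of the fold limit, while the block together with the length and GC correction gave 7 collagen calls, with Col18a1 (1.19) and Col4a5 (1.11) added. The low depth of replicate 2 of 48p-HFSCs limits the values under an FPKM of 0.1.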

Other observations

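The protein-coding neighbours of Col1a2, chosen after values had been seen, were Bet1 and Casd1. Bet1 lies on chromosome 6 from 4076899 to 4086972, and its FPKM was 18.8 and 18.7 in 10p-HFSCs versus 20.9 and 24.7 in 48p-HFSCs (limma adjusted p = 0.48). Casd1, from 4600839 to 4643355, had 3.15 and 2.82 in 10p-HFSCs versus 1.21 and 0.324 in 48p-HFSCs, and was called lower at -1.22 ± 0.32 (log2 difference and SE, limma adjusted p = 0.047), but did not pass without the filter, at the same difference (limma adjusted p = 0.096), or under TPM (-1.50, limma adjusted p = 0.084). Among the protein-coding neighbours of the other tested collagen genes, only Dcbld2 was called. It lies next to Col8a1, whose mean was lower in 48p-HFSCs, and was itself higher (log2 difference 1.25, limma adjusted p = 0.021). Under TPM Dcbld2 did not pass (0.69, limma adjusted p = 0.40). The part of position in the values of Col1a2 was not tested.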
